A study of Mus musculus with 10 samples.

Results

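The NRF2 and glutathione genes were followed in bEnd.3 cells, an immortalised endothelial line from mouse brain, after treatment with StcE, a bacterial mucinase that cleaves proteins densely covered with O-glycans. The set was chosen by gene name and 9 genes are described of the 27024 with a name in the deposited table: the transcription factor gene *Nfe2l2*, its inhibitor *Keap1*, the NRF2-induced genes *Hmox1*, *Nqo1* and *Srxn1*, and the glutathione genes *Gclc*, *Gclm*, *Gsr* and *Slc7a11*. Both treatments were given to the same wild-type line, with 5 samples given an equal volume of saline (replicates 1, 2, 3, 4 and 5) and 5 samples given 5 nM StcE (replicates 1, 2, 3, 5 and 6), all collected after 16 h in serum-containing medium. The labels did not say whether the samples of a group came from separate cultures, so that p-values measure the spread between these samples, which may be technical. The active enzyme was set against saline and not against an inactive form of the enzyme.

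NRF2, the product of *Nfe2l2*, is a transcription factor that induces genes for antioxidant and detoxifying enzymes. In unstressed cells KEAP1 binds NRF2 and passes it to a CUL3 ubiquitin ligase for degradation, and oxidants or electrophiles that modify KEAP1 let NRF2 accumulate, enter the nucleus and bind antioxidant response elements together with small MAF proteins. Control of NRF2 is therefore largely at the level of the protein, which RNA does not measure. Glutathione is the main small thiol of the cell, built from cystine-derived cysteine, glutamate and glycine, and kept reduced with NADPH.

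RNA levels were measured as FPKM, the fragments on a gene per kilobase of its length, scaled by sample. The scale followed the median-of-ratios size factor, the median over genes of a sample's fragments relative to their geometric mean over samples. Values were compared on the log2(FPKM + 1) scale with limma for the 11062 genes whose FPKM averaged 1 or more, and a gene passed the threshold at a Benjamini-Hochberg adjusted p under 0.05. The added 1 makes changes of weakly expressed genes look smaller than they are. Of the 9 genes, 8 reached this minimum, and *Slc7a11*, with a mean of 0.971 FPKM, fell just short of it. Between 21864604 and 33147402 whole fragments per sample could be recovered from the table. All 12 endothelial markers examined reached the minimum, including *Pecam1*, *Cdh5* and *Cldn5*, while the summed FPKM over 4 listed pericyte markers was at most 0.246, over 4 listed microglial markers at most 0.224 and over 5 neuronal markers at most 0.0403 in any sample. The sums were 23.4 to 25.8 for astrocyte markers, nearly all from *Gja1*, 1.19 to 1.52 for fibroblast markers and 1.48 to 1.97 for epithelial markers. Of the endothelial markers 5 were lower and 1 was higher after StcE past the threshold, where 11.9% of all genes tested passed it, and their summed FPKM was 1943 to 2080 with saline and 1890 to 1970 with StcE. The part of this shift in the results below was not tested, and in bulk RNA fewer cells of a type and less RNA per cell cannot be told apart.

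The 9 genes spanned a 271-fold range of FPKM. Levels of different genes can be set side by side only as far as the gene lengths fit the transcripts present. The lengths counted all annotated exons of a gene and exceeded its longest coding transcript unevenly. They were 13922 against 9223 bases for *Slc7a11*, 4693 against 3614 for *Keap1* and 1553 against 1553 for *Nqo1*. The span, the order of genes close in level and the size of ratios between genes depend on that choice. *Hmox1*, which encodes the haem-degrading enzyme haem oxygenase-1, was by far the most abundant, at rank 147 of the 11062 genes tested by mean FPKM (262.8 FPKM over all samples). It was followed by *Nqo1* (40.0 FPKM), *Nfe2l2* (30.1), *Srxn1* (29.1), *Gsr* (26.5), *Gclc* (21.9), *Gclm* (20.8), *Keap1* (15.0) and *Slc7a11* (0.971). The ranges of *Gclc* and *Gclm* overlapped in both groups, although *Gclc* was the higher of the pair in 4 of 5 saline and 5 of 5 StcE samples. In FPKM, *Nfe2l2* lay above *Srxn1* in all 5 saline samples and below it in all 5 StcE samples. Its ranges did not overlap those of *Srxn1* in the saline group but did with StcE. This crossing holds only for the lengths used, 3796 bases for *Nfe2l2* and 2820 for *Srxn1*. The longest coding transcripts have 2475 and 2812 bases, and a shorter length would raise the FPKM of *Nfe2l2*.

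**Figure D1:**
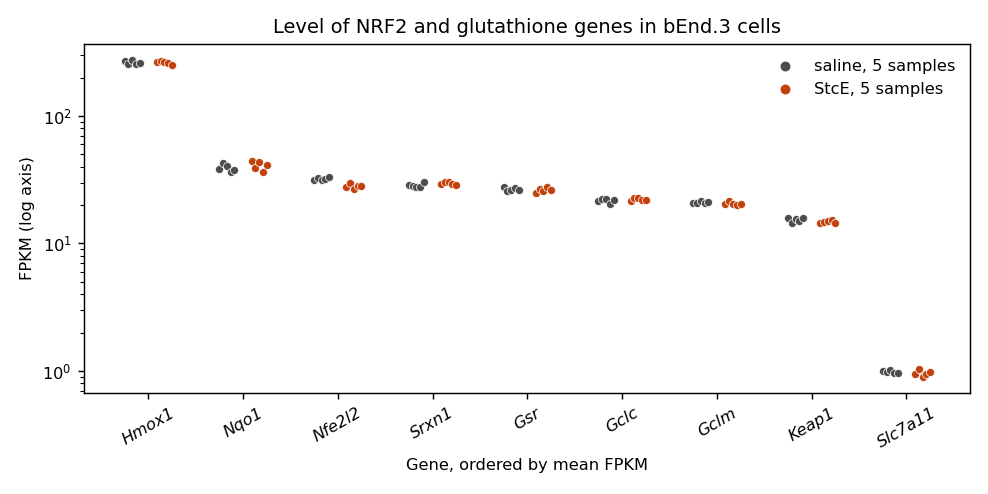
FPKM (log axis) of each of the 9 genes in every sample, with saline samples in grey and StcE samples in orange, ordered by mean FPKM. *Hmox1* sits at 251.6 to 275.8 FPKM and *Slc7a11* near 1 FPKM, and the groups lie close together for each gene.

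*Nfe2l2* (chromosome 2, 75675513 to 75704641, minus strand, GRCm38) was lower after StcE. Its FPKM in the saline samples was 31.7, 32.5, 31.4, 31.9 and 33.0, and in the StcE samples 27.8, 29.8, 26.9, 28.0 and 28.0. The groups did not overlap, the StcE samples all being lower, with StcE replicate 2 nearest to the saline group. The mean fell from 32.1 ± 0.626 FPKM (SD, n = 5) to 28.1 ± 1.06 (SD, n = 5), a change of -12.5%. The log2 fold change was -0.19 (SE of 0.0278, 95% confidence interval -0.25 to -0.13, limma adjusted p = 0.00167), and the exact two-sided permutation test gave p = 0.00794, the smallest that 5 samples against 5 allow. From 2483 to 3723 fragments per sample lay behind these values, no exon base of *Nfe2l2* was shared with another annotated gene, and no near-identical copy of its transcript was found in another gene. Among all genes tested, *Nfe2l2* was at rank 441 by log2 fold change from the lowest and at rank 177 by p-value. It passed the threshold in each of 22 alternative fits, with log2 fold changes of -0.21 to -0.17.

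*Nfe2l2* was the only member past the threshold in this fit, 1 of 8 tested (12.5%), where 11.9% of all genes tested passed it of which 6.41% of genes were lower and 5.52% higher. Likewise 1 of the 8 had groups that did not overlap, against 10.7% of all genes tested (5.8% with the StcE samples lower and 4.85% with them higher). The mean log2 value was lower after StcE for 5 of the 8, where 50.4% of all genes tested were lower. The share of members called was thus near that of the transcriptome. The median log2 fold change of the 8 genes was -0.017, beside -6.6e-04 over all genes tested.

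**Figure D2:**
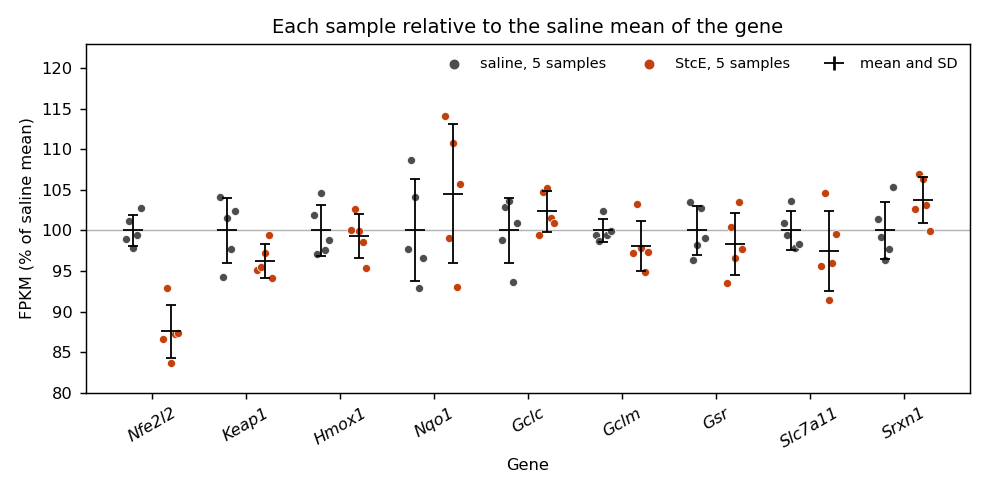
FPKM of each gene in every sample as a percentage of its saline mean, with saline samples in grey, StcE samples in orange, and the mean and SD of each group in black on an axis that does not start at 0. The StcE samples of *Nfe2l2* lie at 83.7% to 92.8% of its saline mean, while the StcE means of the other 8 genes lie at 96.3% to 104.5%.

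*Keap1* (chromosome 9, 21229730 to 21239361, minus strand), which encodes the sensor that holds NRF2 back, had FPKM of 15.9, 14.4, 15.6, 15.0 and 15.7 with saline and 14.6, 14.6, 14.9, 15.2 and 14.4 with StcE. All 5 StcE samples were below the saline mean, but the groups overlapped, with saline replicates 2 and 4 below the highest StcE sample. The means were 15.3 ± 0.612 and 14.7 ± 0.319 FPKM (SD, n = 5 each), with a log2 fold change of -0.051 (95% confidence interval -0.12 to 0.014, limma adjusted p = 0.296). A transcript on the opposite strand, *Gm16754*, covers 10.9% of the exon length of *Keap1*. The libraries kept strand, but whether counting used it is not given in the sources used here. Set against each other in the same sample, the FPKM of *Nfe2l2* was 1.99 to 2.25 times that of *Keap1* with saline (median 2.10) and 1.80 to 2.04 times with StcE (median 1.91). The ranges of this ratio overlapped, and its log2 mean differed by -0.14 between groups, with an SD of 0.0696 among saline and 0.0687 among StcE samples.

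The partners and turnover machinery of NRF2 were examined as a list of 12 genes, of which 10 were tested. Past the threshold 1 was higher and 0 were lower (10.0% called, beside 11.9% of all genes tested). The gene that rose was *Maff*, which encodes a small MAF protein that pairs with NRF2 on DNA. Its FPKM was 20.4, 19.3, 20.6, 20.8 and 18.2 with saline and 29.1, 24.3, 27.8, 25.3 and 24.7 with StcE, without overlap, which gave a log2 difference of 0.38 (SE of 0.0532, limma adjusted p = 0.00107). *Mafg*, another small MAF gene, had a log2 fold change of 0.083 (limma adjusted p = 0.139). *Cul3*, the scaffold of the ubiquitin ligase, was at -0.040 (limma adjusted p = 0.457), and *Bach1*, a repressor that competes with NRF2 for its elements, was at -0.0068 (limma adjusted p = 0.926). These 3 genes did not pass the threshold.

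Because NRF2 acts through antioxidant response elements, the promoter windows of the members were searched for the core letters of that element. RefSeq windows on GRCm38.p6, from 250 bases before to 50 after the gene start, were held for 6 of the 9 genes. *Hmox1*, *Gclc* and *Gsr* were not among them. The letters TGACNNNGC were found, on either strand, in 3 of the 6 windows, beside 12.4% of all 32851 windows, and the variant TGAGNNNGC in 2 of the 6, beside 17.6% of all windows. The 2 forms differ at a fixed letter and cannot match at the same place. *Srxn1* held both forms, so that 4 of the 6 windows held either, beside 27.8% of all. The windows of *Keap1* and *Nqo1* held neither, which says only that these letters were not in this window. The 250 bases before the start of the 4 genes with a match are shown 5′ to 3′ on the strand of the gene, to set the match of *Nfe2l2* itself beside those of the other genes. Capitals mark a match, which reads from GC to TCA where it lies on the opposite strand.
*Nfe2l2* (chr2:75704664-75704913, minus strand): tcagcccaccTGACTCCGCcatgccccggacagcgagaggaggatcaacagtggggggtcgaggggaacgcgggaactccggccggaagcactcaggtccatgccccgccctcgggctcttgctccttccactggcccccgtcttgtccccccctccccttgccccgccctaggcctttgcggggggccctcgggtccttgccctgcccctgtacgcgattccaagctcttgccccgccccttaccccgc
*Srxn1* (chr2:152105274-152105523, plus strand): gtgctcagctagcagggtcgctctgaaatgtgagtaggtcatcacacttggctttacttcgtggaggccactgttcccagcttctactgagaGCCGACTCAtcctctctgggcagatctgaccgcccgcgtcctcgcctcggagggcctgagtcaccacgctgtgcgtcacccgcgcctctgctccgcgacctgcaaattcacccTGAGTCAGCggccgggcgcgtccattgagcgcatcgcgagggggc
*Gclm* (chr3:122245307-122245556, plus strand): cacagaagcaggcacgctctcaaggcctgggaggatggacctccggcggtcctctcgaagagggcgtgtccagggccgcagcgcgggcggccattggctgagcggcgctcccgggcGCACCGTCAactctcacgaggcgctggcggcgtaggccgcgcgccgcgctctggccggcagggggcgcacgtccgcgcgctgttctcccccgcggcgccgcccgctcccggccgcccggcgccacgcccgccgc
*Slc7a11* (chr3:50443614-50443863, minus strand): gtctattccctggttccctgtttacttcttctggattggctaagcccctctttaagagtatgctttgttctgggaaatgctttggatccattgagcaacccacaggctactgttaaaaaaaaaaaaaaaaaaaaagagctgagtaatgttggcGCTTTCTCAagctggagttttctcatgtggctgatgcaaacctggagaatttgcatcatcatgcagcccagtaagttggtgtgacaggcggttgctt
The match of *Nfe2l2*, TGACTCCGC, lay 240 to 232 bases before the start and was the only one on the gene's own strand with the C form. *Srxn1* held TGAGTCAGC on its own strand 45 to 37 bases before the start, a further match on the opposite strand at 158 to 150 bases, and 1 more, after the start and not shown, of the C form. *Gclm* held 1 match of the C form on the opposite strand, and *Slc7a11* held 1 of the G form. These are matches of letters and not binding sites, and no binding was measured.

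*Hmox1*, *Nqo1* and *Srxn1*, NRF2-induced enzyme genes set apart here from the glutathione genes, did not pass the threshold. This grouping does not mean that the glutathione genes are not induced by NRF2. *Hmox1* (chromosome 8, 75093621 to 75100589, plus strand) had 268.6, 256.2, 275.8, 257.3 and 260.6 FPKM with saline and 263.7, 270.8, 263.5, 259.8 and 251.6 with StcE, and the groups lay over each other. The means were 263.7 ± 8.34 and 261.9 ± 7.01 FPKM (SD, n = 5 each), with a log2 fold change of -0.0097 (95% confidence interval -0.070 to 0.050, limma adjusted p = 0.855). From 10333 to 16003 fragments per sample lay behind *Hmox1*, the most of the 9 genes, and the interval corresponds to -4.71% to 3.54% on the FPKM + 1 scale. The direction of so small a difference turned when either saline replicate 3 (log2 fold change 0.0066) or StcE replicate 6 (0.0046) was left out.

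*Nqo1* (chromosome 8, 107388225 to 107403206, minus strand), which encodes a quinone reductase widely used as a readout of NRF2 activity, varied most among the tested members. Its FPKM was 38.2, 42.5, 40.7, 36.4 and 37.8 with saline and 44.6, 38.7, 43.3, 36.4 and 41.3 with StcE. StcE replicates 1 and 3 were above every saline sample, whereas StcE replicate 5 was as low as the lowest of them. The log2 fold change was 0.061 with the largest standard error of the 8 genes (0.0571), a 95% confidence interval of -0.064 to 0.19 and a limma adjusted p of 0.532. A rise of up to 13.7% therefore lies within the interval.

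*Srxn1* (chromosome 2, 152105516 to 152111376, plus strand) encodes sulfiredoxin, which restores overoxidised peroxiredoxins. It had 29.0, 28.3, 27.5, 27.9 and 30.1 FPKM with saline and 29.3, 30.5, 30.4, 29.5 and 28.5 with StcE. Of the StcE samples 4 were above the saline mean and 2 above every saline sample, and the groups overlapped. The log2 fold change was 0.052 (95% confidence interval -0.011 to 0.12, limma adjusted p = 0.272), the lowest adjusted p among the 7 tested members that did not pass the threshold.

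For glutathione synthesis, *Gclc* and *Gclm* encode the catalytic and the modifier subunit of glutamate-cysteine ligase, the rate-limiting enzyme. *Gclc* (chromosome 9, 77754535 to 77794485, plus strand) had 21.4, 22.3, 22.5, 20.3 and 21.9 FPKM with saline and 21.5, 22.7, 22.8, 22.0 and 21.9 with StcE. *Gclm* (chromosome 3, 122245557 to 122270732, plus strand) had 20.8, 20.7, 21.5, 20.8 and 21.0 FPKM with saline and 20.4, 21.7, 20.5, 19.9 and 20.4 with StcE. The groups overlapped for both genes. For *Gclm* 4 of the StcE samples were below every saline sample, while StcE replicate 2 was above them all. The log2 fold change was 0.033 for *Gclc* (95% confidence interval -0.033 to 0.099, limma adjusted p = 0.518). It was -0.027 for *Gclm* (95% confidence interval -0.082 to 0.028, limma adjusted p = 0.529), and other annotated genes cover 4.71% of the *Gclm* exon length on the opposite strand and 3.88% on the same strand. The FPKM ratio of catalytic to modifier subunit stayed near equality, at 0.974 to 1.08 with saline (median 1.04) and 1.05 to 1.11 with StcE (median 1.07), and the ranges overlapped. *Gss*, for the enzyme that completes glutathione, had 4.96 ± 0.126 and 5.20 ± 0.255 FPKM (SD, n = 5 each) and a log2 fold change of 0.057 (limma adjusted p = 0.309).

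*Slc7a11* (chromosome 3, 49892526 to 50443614, minus strand) encodes xCT, the light chain of the cystine importer. It was listed at 0.992, 0.977, 1.02, 0.961 and 0.966 FPKM with saline and 0.940, 1.03, 0.899, 0.943 and 0.979 with StcE, on 307 to 460 fragments per sample. The groups overlapped, with means of 0.983 ± 0.0233 and 0.958 ± 0.0488 FPKM (SD, n = 5 each) and a difference of -0.019 on the log2(FPKM + 1) scale, and no test was made at this level in the same fit. With the minimum lowered to 0.1 FPKM its limma adjusted p was 0.806. Near-identical stretches in 9 other annotated genes, among them the tubulin genes *Tuba1a* and *Tuba1b*, cover 4.06% of its longest coding transcript. The heavy chain gene *Slc3a2*, shared with other amino acid transporters, was far more abundant, at 54.0 ± 2.36 FPKM with saline and 53.2 ± 1.52 with StcE (SD, n = 5 each), with a log2 fold change of -0.018 (limma adjusted p = 0.754). The FPKM of *Slc7a11* was 0.0171 to 0.0191 of that of *Slc3a2* with saline and 0.0171 to 0.0189 with StcE.

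*Gsr* encodes glutathione reductase, which uses NADPH to return oxidised glutathione to its reduced form. The gene (chromosome 8, 33652523 to 33698163, plus strand) had 27.6, 25.7, 26.2, 27.5 and 26.5 FPKM with saline and 25.0, 26.8, 25.8, 27.6 and 26.1 with StcE, and the StcE samples reached just past the saline range at both ends. For *Gsr* the log2 fold change was -0.024 (95% confidence interval -0.091 to 0.044, limma adjusted p = 0.667).

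**Figure D3:**
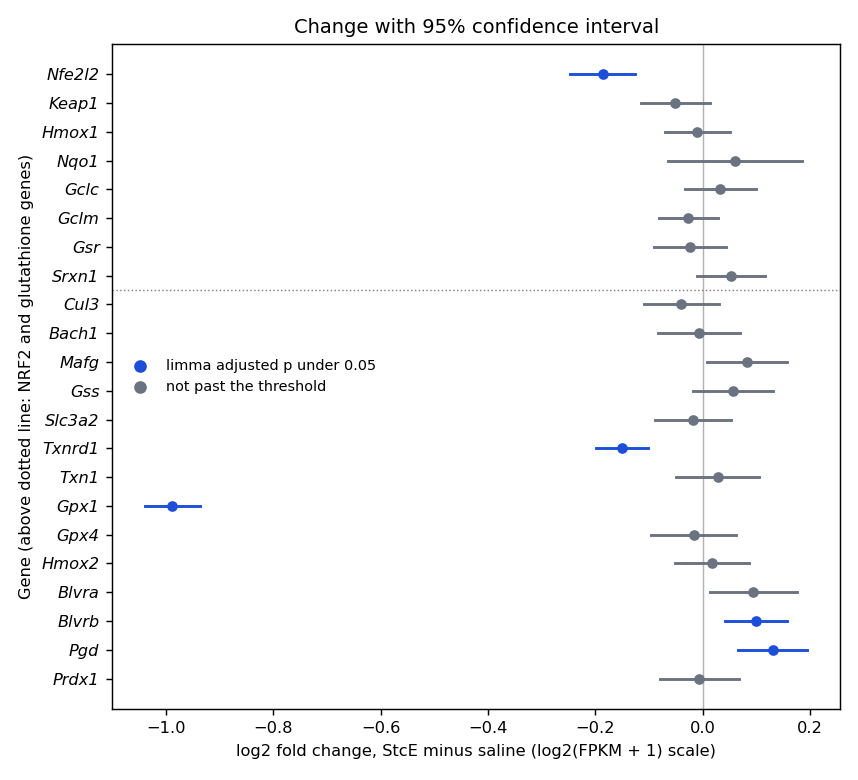
log2 fold change (StcE minus saline, on the log2(FPKM + 1) scale) with its 95% confidence interval for the 8 tested members above the dotted line and for 14 partner genes below it, in blue where the limma adjusted p was under 0.05. Among the members the interval of *Nfe2l2* alone lies wholly below 0, and the other 7 intervals include 0.

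Over the 7 tested members without a call, the log2 fold changes lay between -0.051 and 0.061, their limma adjusted p between 0.272 and 0.855, and their 95% confidence intervals between -0.12 and 0.19. A p that missed the threshold does not show that these genes were equal in the groups, and changes of the sizes within those intervals remain possible. In 22 alternative fits none of the 7 passed the threshold.

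Other genes of the NRF2 and glutathione system were taken by function in 9 lists, with earlier results of these data known. The share of genes called in a list is therefore a description and not a test of the list. Some genes stand in more than 1 list. Counted once each and without the members, 94 of the list genes were tested, of which 10 were higher and 7 lower past the threshold (18.1%, beside 11.9% of all genes tested). The list of other NRF2-induced genes had members in both directions, with 5 higher and 3 lower of 21 tested and a median log2 fold change of 0.0072. The share called in this list was 38.1%, beside 11.9% of all genes tested (5.52% higher and 6.41% lower). The largest fall was that of *Ephx1*, which encodes microsomal epoxide hydrolase, from 166.5 ± 5.85 to 133.7 ± 2.86 FPKM (SD, n = 5 each), or -0.31 on the log2 scale (SE of 0.0270, limma adjusted p = 2.5e-05). *Gstm1*, a glutathione transferase, was at -0.22 (limma adjusted p = 0.00177) and *Txnrd1*, the cytosolic thioredoxin reductase and a selenoprotein, at -0.15 (limma adjusted p = 0.00160). In the other direction *Akr1b8*, an aldo-keto reductase gene, rose from 129.9 ± 3.74 to 147.0 ± 5.34 FPKM (SD, n = 5 each), a log2 fold change of 0.18 (limma adjusted p = 0.00304). *Blvrb*, one of the reductases that act on biliverdin, was at 0.10 (limma adjusted p = 0.0311), a call lost in 9 of 22 alternative fits. The remaining higher genes of this list, *Tkt*, *Pgd* and *Me1*, are also in the list of NADPH supply and are given there. *Txn1*, the thioredoxin gene, was at 0.028 (limma adjusted p = 0.658) and *Prdx1* at -0.0063 (limma adjusted p = 0.929).

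**Figure D4:**
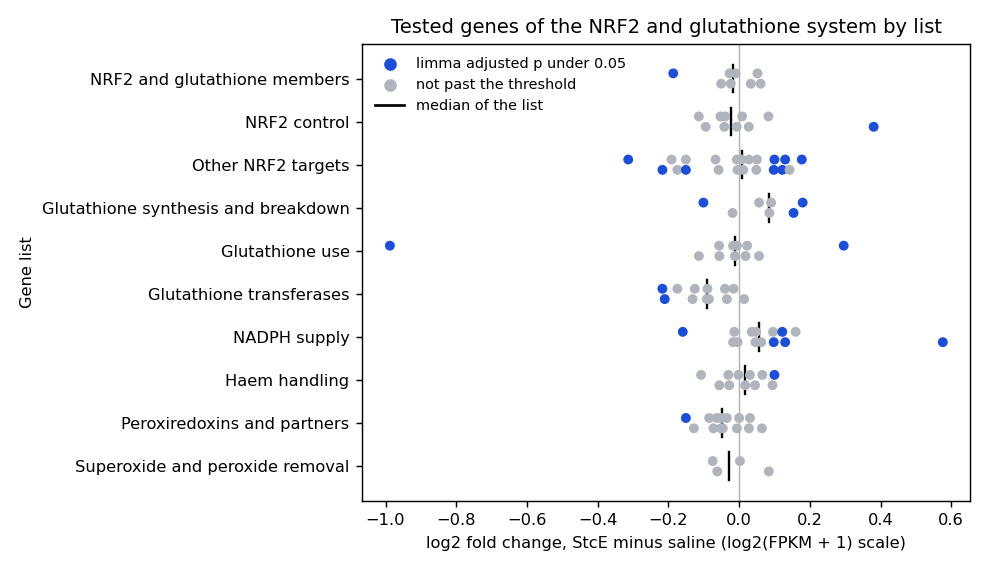
log2 fold change (StcE minus saline, on the log2(FPKM + 1) scale) of each tested gene, by list, in blue where the limma adjusted p was under 0.05, with a black line at the median of the list. Calls lie on both sides of 0 among other NRF2 targets, and the points farthest from 0 are *Gpx1* at -0.99 and *Idh1* at 0.58.

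Genes of NADPH supply had 4 members higher and 1 lower of 14 tested, with a median log2 fold change of 0.055. The share called was 35.7%, beside 11.9% of all genes tested (5.52% higher and 6.41% lower). *Idh1*, the cytosolic isocitrate dehydrogenase, rose most, from 10.9, 9.79, 9.89, 10.1 and 10.5 FPKM with saline to 15.4, 16.4, 16.3, 14.7 and 15.9 with StcE, which is 0.58 on the log2 scale (SE of 0.0368, limma adjusted p = 1.8e-06). In the pentose phosphate pathway *Pgd*, which encodes phosphogluconate dehydrogenase, was at 0.13 (limma adjusted p = 0.0169) and *Tkt*, transketolase, at 0.12 (limma adjusted p = 0.0130), both without overlap between groups. Groups did not overlap for 10.7% of all genes tested. The malic enzyme gene *Me1* was at 0.098 (limma adjusted p = 0.0249), a call lost in 6 of 22 alternative fits. *Pgd*, *Tkt* and *Me1* were also counted among the higher genes of the other NRF2-induced list, so that the counts of the lists are not separate results. *Idh2*, the mitochondrial isocitrate dehydrogenase, which was named after its value was seen, was at -0.16 (limma adjusted p = 0.0305), with groups that overlapped and a call lost in 10 of 22.

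Among genes of glutathione synthesis and breakdown, 2 were higher and 1 lower of 7 tested, with a median log2 fold change of 0.086. The share called was 42.9%, beside 11.9% of all genes tested. *Chac1* and *Ggct*, which act in glutathione breakdown, were at 0.15 (limma adjusted p = 0.0295) and 0.18 (limma adjusted p = 0.0298), and these calls were lost in 9 and 8 of 22 alternative fits. *Slc25a39*, a mitochondrial glutathione carrier gene, was at -0.10 (limma adjusted p = 0.0168). Among the enzymes that use glutathione, 1 was higher and 1 lower of 11 tested (18.2% called), with a median of -0.012. The peroxidase gene *Gpx1*, a selenoprotein, fell from 332.9 ± 7.95 to 167.4 ± 3.34 FPKM (SD, n = 5 each; log2 fold change -0.99, limma adjusted p = 1.8e-10). *Gpx8*, a peroxidase of the endoplasmic reticulum without selenium, rose from 28.6 ± 2.26 to 35.4 ± 2.35 FPKM (SD, n = 5 each; log2 fold change 0.30, limma adjusted p = 0.00626). *Gpx4*, the phospholipid hydroperoxidase, was at -0.017 (limma adjusted p = 0.802).

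The glutathione transferases had 0 genes higher and 2 lower of 12 tested, with a median log2 fold change of -0.090. The share called was 16.7%, beside 11.9% of all genes tested. *Gstm1*, given above, was joined by *Gstm7*, a gene at 1.97 ± 0.194 and 1.57 ± 0.113 FPKM (SD, n = 5 each), with a log2 fold change of -0.21 (limma adjusted p = 0.0290), a call lost in 10 of 22 alternative fits. In haem handling 1 of 11 tested genes (9.09%), *Blvrb*, was higher and 0 were lower, with a median of 0.017. *Hmox2*, the constitutive haem oxygenase, was at 0.017 (limma adjusted p = 0.763) and *Blvra* at 0.095 (limma adjusted p = 0.124). Of the 14 tested peroxiredoxins and partners *Txnrd1* alone (7.14%) passed the threshold with limma on FPKM, with a median of -0.048 and 2 calls with voom. Of 4 tested genes for superoxide and peroxide removal 0 passed the threshold with limma and 0 with voom on recovered fragments. Of these 4 genes 3 had an unadjusted limma p under 0.05, and the median was -0.030.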

How the data were processed

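Libraries from poly(A) RNA kept the strand through dUTP and were read from both ends. The authors trimmed the reads and aligned them to GRCm38, and the submitters' processing notes name HISAT2 2.0.5, featureCounts 1.5.0-p3 and DESeq2 1.32.0. The annotation release is not given in the sources used here. The authors deposited FPKM per sample for 27024 named rows (a further 22874 rows were empty). After multiplication by GENCODE vM21 exon lengths, 96.6% of values above 0 were whole fragments (within 0.05), which gave the depth. Each sample's scale followed its median-of-ratios size factor (deviation up to 0.0446%), so that the FPKM were already normalised between samples. Counting error does not cover PCR duplicates.

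FPKM were tested as log2(FPKM + 1), minimum mean 1, with limma 3.58.1 (eBayes with trend) in R 4.3.3 and Benjamini-Hochberg adjustment over 11062 genes. The main fit was made on log2 values because the file holds FPKM, and voom on recovered fragments served as a count-based alternative. Single genes were also tested by exact two-sided permutation over 252 arrangements. On simulated data for these 11062 genes, 114 of 200 genes changed by a log2 value of 0.2 were recovered (8 false calls), 194 at 0.5 and 199 at 1, and 0 calls were made when nothing was changed. Fewer genes were changed in the simulation than were called in the data (1320), and noise was drawn independently for each gene. These rates therefore need not hold for the real fit. Copies were sought with BLAST 2.17.0 (at least 95% identity over 150 bases).

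The members and lists were chosen with earlier results of these data known. A gene of the set is not reported here. Named genes are all other members, 14 partners named whatever their value, and up to 4 genes per list with the smallest adjusted p past the threshold. The second form of the promoter letters was added after the first was searched. Alternatives were another pseudocount (0.1), minimum (0.1 or none), scaling by median ratio, upper quartile or total fragments, eBayes without trend or robust, array weights, voom on recovered fragments, the replicate number as a block, and each sample left out. Same-numbered samples did not deviate together (correlations of -0.0966 to 0.0538), and the main fit did not treat them as pairs. Such correlations over all genes tested cannot exclude that same-numbered samples were handled together.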

Additional observations from a re-analysis of the deposited data

How the results depend on the processing

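*Nfe2l2* kept its direction and its call in all 22 alternatives (log2 fold change -0.21 to -0.17, limma adjusted p 4.0e-04 to 0.0361), the largest p being that of the fit with the replicate number as a block, which used 8 samples. The 7 other tested members passed the threshold in none of the 22, and *Slc7a11* had no call in the fits with a lower minimum or none (limma adjusted p of 0.806 and 0.846). *Hmox1*, at -0.0097, ranged from -0.022 to 0.0066 when single samples were left out, and above 0 it was never past the threshold. Without single samples, *Nqo1* ranged from 0.029 (without StcE replicate 1) to 0.10 (StcE 5), *Gclc* from 0.011 (saline 4) to 0.046, *Gclm* from -0.045 (StcE 2) to -0.016 (StcE 5) and *Gsr* from -0.042 (StcE 5) to -0.0062 (StcE 1), all without a call. The shifts of the *Gclc* to *Gclm*, *Slc7a11* to *Slc3a2* and *Nfe2l2* to *Keap1* ratios kept their sign without any 1 sample, at 0.042 to 0.078, -0.043 to -4.8e-04 and -0.16 to -0.11 on the log2 scale.

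The number of genes past the threshold, 1320 (709 lower, 611 higher), was 801 without a filter (409 lower, 392 higher), over 27024 genes. It was 349 with the replicate block (162 lower, 187 higher). Fitted with no block, these 8 samples gave 885 (452 lower). Whether samples of the same number were handled together is not known. Leaving out single samples gave 793 to 1255 (409 to 667 lower, 384 to 588 higher), with 793 (409 lower, 384 higher) without StcE replicate 3 and 838 (428 lower) without saline replicate 1. The cause was not tested.

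Of the list genes named, *Maff*, *Ephx1*, *Akr1b8*, *Gpx1* and *Idh1* kept their call in all 22 alternatives, and *Txnrd1*, *Gstm1*, *Gpx8*, *Pgd*, *Tkt* and *Slc25a39* lost it with the replicate block alone. *Blvra* gained a call on the 8 samples with no block (log2 fold change 0.14, limma adjusted p = 0.0175). Calls of *Blvrb*, *Chac1*, *Ggct*, *Gstm7*, *Idh2* and *Me1* were lost with the block and without single samples: *Blvrb* without saline 1, 3 or 4 or StcE 1, 2, 3 or 5, *Chac1* without saline 2, 3 or 4 or StcE 1 or 5, *Ggct* without saline 1, 3 or 4 or StcE 1, 3 or 5, *Gstm7* without saline 1, 2 or 3 or StcE 1, 2 or 6, *Idh2* without saline 1, 2, 3 or 5 or StcE 3, 5 or 6, and *Me1* without saline 1, 2 or 4 or StcE 3. Further losses were those of *Chac1*, *Ggct*, *Gstm7* and *Idh2* without a filter, of *Blvrb*, *Chac1* and *Gstm7* with voom, and of *Chac1*, *Gstm7*, *Idh2* and *Me1* on the 8 samples with no block. With voom the calls were 2 for NRF2 control, 9 for other NRF2 targets, 2 for glutathione synthesis and breakdown, 2 for glutathione use, 1 for the transferases, 6 for NADPH supply, 1 for haem handling and 2 for peroxiredoxins. Without a filter 1 gene was called among glutathione synthesis and breakdown and 1 among the transferases. Some differences near 0 changed sign without ever passing the threshold. *Bach1* was at 6.2e-04 with total fragment scaling, and -0.020 to 0.0099 without single samples. *Gpx4* was at -0.038 to 0.0015 without single samples. *Prdx1* was at 0.0031 with total fragment scaling, 0.0033 with array weights, 0.0058 on the 8 samples with or without the replicate block, and -0.023 to 0.018 without single samples.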

Other observations

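In 24 sets of 5 values (each of the 9 genes and the 3 ratios in each group), no sample stood apart from the others of its group by Dixon's criterion, where chance gives about 1 set in 20.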
